A study of Mus musculus with 23 samples.

Results

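The genes described here are 10 genes known as targets or feedback parts of the Wnt and beta-catenin pathway: Axin2, Sp5, Cdx1, Lef1, Tcf7, Nkd1, Notum, Dkk1, Rnf43 and Znrf3. They were chosen by name as classical Wnt targets, to be followed in mouse embryonic stem cells moved from a medium with a GSK3 inhibitor to a medium for which none is listed. They are 10 of 53607 gene rows in the deposited count matrix, and all 10 passed the filter on low counts, which kept 20372 genes. Each of the 10 is protein-coding.

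In the Wnt pathway, beta-catenin is made continuously and destroyed by a complex of AXIN, APC and the kinases GSK3 and CK1. A Wnt ligand bound to Frizzled and LRP receptors, or a chemical inhibitor of GSK3 such as CHIR99021, stops the destruction, and beta-catenin then enters the nucleus and binds TCF/LEF proteins on DNA. Several targets act back on the pathway: AXIN2 and NKD1 inside the cell, the ubiquitin ligases RNF43 and ZNRF3 at the receptors, and the secreted proteins NOTUM and DKK1 outside it. In naive embryonic stem cells, GSK3 inhibition is known mainly for lifting repression by TCF7L1.

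RNA was sequenced from 23 libraries of Raslox/lox embryonic stem cells, a line in which H-Ras and N-Ras are disrupted (-/-) and a further, floxed Ras allele can be removed by Ubiq-CreERT2, a Cre recombinase switched on by 4-hydroxytamoxifen (OHT). Of the 8 groups, 4 were kept in 2iL, which contains the MEK inhibitor PD0325901, the GSK3 inhibitor CHIR99021 and LIF, and 4 were moved for 48 hours onto fibronectin in FA, which contains FGF2, Activin A and KOSR. Within each medium the groups carried the label ERF WT or ERF KO, each without OHT (RAS present) or with OHT for 6 days (RAS deleted). Each group held 3 libraries, except ERF WT with RAS present in FA, which held 2. That line is called the reference line below, and it too lacks H-Ras and N-Ras. ERF is an ETS-family repressor that ERK signaling inactivates. OHT and the loss of RAS cannot be told apart, the change of medium removes the MEK inhibitor and LIF together with the GSK3 inhibitor, and the number of clones behind each label and whether replicates were separate cultures are not given in the sources used here. P-values therefore measure only the spread between these libraries, which may be technical.

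Library totals ran from 16.2 to 29.9 M counts. Erf was not called lower under the ERF KO label in any medium or RAS state. In 2iL with RAS present it was higher, at 116 ± 17.5 CPM (counts scaled to a common library size, SD, n = 3) under ERF KO and at 77.6 ± 7.66 CPM (SD, n = 3) under ERF WT. In FA it was at 57.5 against 63.1 CPM with RAS present (-0.14 on the log2 scale, edgeR adjusted p 0.614) and at 60.6 against 69.7 CPM with RAS deleted (-0.20, edgeR adjusted p 0.230). Counts per gene do not show a small lesion, so the genotype is given as labelled throughout. Hras and Nras kept counts in every library. Chromosome 8 genes were raised in all 4 ERF WT libraries numbered 1. The median difference was 0.27 to 0.33 on the log2 scale against the mean of the other libraries of the group. In the FA group of the reference line that is a single library. Medians in the ERF KO libraries, taken the same way, stayed between -0.05 and 0.05. Naive markers (Klf4, Zfp42, Esrrb, Tfcp2l1, Nr0b1, Tbx3) summed to between 2294 and 2912 CPM in 2iL. In FA they summed to between 90.3 and 149 CPM in 3 of the groups but to between 777 and 1172 CPM in ERF WT with RAS deleted. Of the fibroblast feeder markers, Dcn or Lum was at 0 in each group, and the list's 6 genes never summed above 8.49 CPM.

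A TCF/LEF core was looked for in promoters because beta-catenin acts through it. RefSeq promoter windows (GRCm38.p6, 250 bases before to 50 after a start site) were found for 7 of the 10 genes, as 12 windows. CTTTGAT or CTTTGAA on either strand was present in 2 of the 12 windows, those of Sp5 and Dkk1, against 8.65% of all 32851 windows. These were a gene that fell and a gene that rose between 2iL and FA in the reference line. The ETS core CCGGAAG was present on either strand in 2 of the 12, 1 each of Tcf7 and Rnf43, against 8.86% of all windows. Of the 12 windows 4 are Lef1's, and some of those overlap. A match describes letters and not a bound site. The Sp5 sequence covers the 250 bases before the RefSeq start site at chr2:70474673-70474922, plus strand, and its match starts 104 bases before that site. The Dkk1 sequence is the match with its flanks at chr19:30549595-30549624, minus strand, where the match starts 117 bases before the RefSeq start site. Both are written 5′ to 3′, and capitals mark the TCF/LEF core.
Sp5: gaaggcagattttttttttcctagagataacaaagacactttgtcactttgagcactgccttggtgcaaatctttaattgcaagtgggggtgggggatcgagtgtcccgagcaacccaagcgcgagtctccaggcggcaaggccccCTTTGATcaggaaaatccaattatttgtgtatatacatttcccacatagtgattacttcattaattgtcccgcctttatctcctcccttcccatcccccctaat
Dkk1: tcctcccaaagCTTTGAAatcccatcccgg

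The first question was how the 10 genes differ between 2iL and FA in the reference line. The targets did not move as a block: 3 rose (Lef1, Dkk1, Nkd1), 3 fell (Cdx1, Sp5, Notum) and 4 were not called, among them Axin2. A call required an edgeR quasi-likelihood adjusted p under 0.05 (Benjamini-Hochberg over all 20372 genes) and at least a 2-fold change. In the same comparison 13.2% of all genes tested were called higher and 10.8% lower. The median log2 change of the 10 was 0.09, beside 0.03 over all genes tested.

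Compared per length, the order of the genes was rearranged. In 2iL the reference line had Tcf7 at 17.8 TPM (a level scaled by length and library size, mean of 3), Cdx1 at 16.6 TPM, Znrf3 at 7.66 TPM, Notum at 6.15 TPM and Axin2 at 5.30 TPM. Lef1 was then among the lowest, at 0.517 TPM, with Dkk1 at 0.109 TPM below it. In FA Lef1 led at 30.6 TPM (mean of 2), above Tcf7 at 22 TPM, Znrf3 at 7.37 TPM and Axin2 at 5.90 TPM, while Cdx1 was at 0.734 TPM and Sp5 at 0.051 TPM. Lef1 and Tcf7 were at 39.0 and 22.4 TPM in the first FA library but nearly level in the second, at 22.1 and 21.6 TPM. In the third 2iL library Cdx1, at 18.8 TPM, lay above Tcf7, at 17.6 TPM. By group mean, the genes that led in each medium were a pair of transcription factors each time, with Tcf7 common to both.

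**Figure D1:**
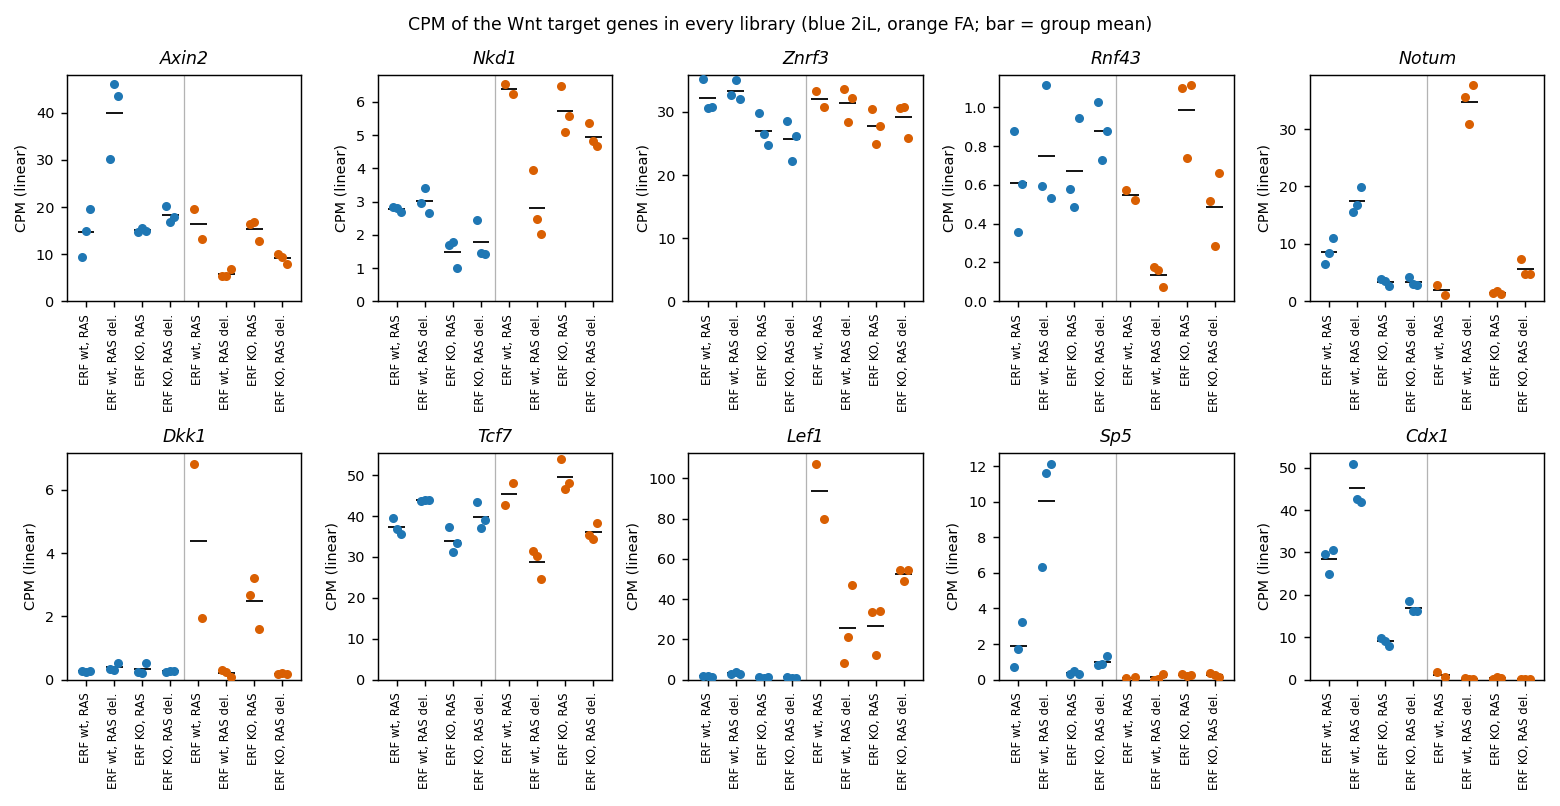
CPM of each of the 10 genes in every library (vertical axes, linear from 0), by group on the horizontal axes, with 2iL in blue, FA in orange and a black bar at the group mean; n = 3 a group, except n = 2 for ERF WT with RAS present in FA. Sp5 and Cdx1 sit near 0 in all 11 FA libraries, Lef1 is low in all 12 2iL libraries, Notum is highest with RAS deleted in FA under ERF WT at 30.8 to 37.7 CPM, and Znrf3 lies between 22.2 and 35.3 CPM throughout.

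Sp5 (chromosome 2, 70474923 to 70477729, GRCm38) encodes a zinc-finger transcription factor that is a direct beta-catenin target. In 2iL its 3 reference libraries had 0.735, 1.73 and 3.25 CPM, and in FA its 2 libraries had 0.072 and 0.142 CPM, from 3 counts or fewer each. All 2iL values lay above all FA values. Over pooled counts Sp5 was 17.5-fold lower in FA, with an exact 95% counting interval from 7.31 to 55.0, which covers counting error only. The fitted log2 change was -4.12 (SE 0.77, edgeR adjusted p 0.000135) and depends on the prior count at so low a level; without the third 2iL library it was -3.44.

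With RAS deleted under ERF WT, Sp5 stood highest of all groups in 2iL, at 6.34, 11.6 and 12.1 CPM, and the FA libraries had 0, 0.0405 and 0.324 CPM. The fall was -6.20 (SE 0.58, edgeR adjusted p 2.49e-08), or -8.55 without the third FA library. The 2iL libraries labelled ERF KO had 0.336, 0.487 and 0.315 CPM with RAS present, little above their FA libraries at 0.326, 0.217 and 0.239 CPM. Their change of -0.52 (SE 0.70, edgeR adjusted p 0.578) was not called. With RAS deleted under ERF KO, Sp5 fell by 1.85 (SE 0.60, edgeR adjusted p 0.0122) from 0.797, 0.896 and 1.35 CPM to 0.354, 0.286 and 0.166 CPM. That call was lost without the third 2iL library of the group (-1.61, edgeR adjusted p 0.0541).

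Cdx1 (chromosome 18, 61018862 to 61036199, GRCm38), a caudal-type homeobox gene that Wnt signaling drives in the posterior embryo, fell in all 4 lines. In the reference line it went from 29.6, 24.9 and 30.7 CPM to 1.69 and 0.663 CPM, a change of -4.53 (SE 0.27, edgeR adjusted p 6.3e-12), or 23.1-fold. Without the first FA library that change was -5.43. The fall was -8.35 (SE 0.31, edgeR adjusted p 1.49e-14) with RAS deleted under ERF WT, from 51.0, 42.6 and 41.8 CPM to 0.263, 0.081 and 0.0719 CPM. Those FA values rest on 6, 2 and 2 counts, and without the first of them the fall was -9.11. Under the ERF KO label it was -4.48 (SE 0.28, edgeR adjusted p 1.99e-11) with RAS present (-5.08 without the second FA library) and -6.28 (SE 0.30, edgeR adjusted p 1.25e-13) with RAS deleted. Group means of Cdx1 in 2iL ran from 45.1 through 28.4 and 17 to 9.01 CPM, for ERF WT with RAS deleted, ERF WT with RAS present, ERF KO with RAS deleted and ERF KO with RAS present, and the ranges of neighbors in that order did not overlap. In FA all 4 means were at or below 1.18 CPM, and neighboring ranges overlapped.

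Lef1 (chromosome 3, 131110471 to 131224356, GRCm38) encodes a TCF/LEF protein that binds beta-catenin at its targets, and it moved opposite to Sp5 and Cdx1. It rose in all 4 lines. In the reference line 2iL libraries had 1.79, 1.73 and 1.30 CPM and FA libraries 107 and 79.8 CPM, a change of 5.86 (SE 0.59, edgeR adjusted p 5.23e-07), or 58.0-fold. Under the ERF KO label the rise was 4.67 (SE 0.63, edgeR adjusted p 1.32e-05) with RAS present and 5.50 (SE 0.62, edgeR adjusted p 1.39e-06) with RAS deleted.

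With RAS deleted under ERF WT, Lef1 rose by 3.06 (SE 0.53, edgeR adjusted p 0.00021), and its FA libraries were spread at 8.33, 21.4 and 46.8 CPM. Without the third the rise was 2.28. The naive markers summed to 1172, 881 and 777 CPM in the same 3 libraries, so the library with least Lef1 had most of them. Formative epiblast markers (Fgf5, Otx2, Pou3f1, Dnmt3b, Dnmt3a, Sox3) summed to 281, 394 and 512 CPM there and two-cell-like markers to 177, 87.8 and 46.0 CPM. The part of these markers in the Lef1 level was not tested. In bulk RNA, fewer cells of a type and less RNA per cell cannot be told apart. FA libraries under ERF KO had 33.4, 12.5 and 34.2 CPM with RAS present and 54.3, 48.8 and 54.4 CPM with RAS deleted, so the ERF WT group with RAS deleted overlapped the former and lay below the latter.

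Tcf7 (chromosome 11, 52252371 to 52283014, GRCm38), which encodes TCF1, another partner of beta-catenin, held between 24.7 and 54.0 CPM in all 23 libraries. It passed the adjusted p in 3 medium comparisons but reached 2-fold in none. Its changes were 0.28 (SE 0.10, edgeR adjusted p 0.0225) in the reference line, -0.61 (SE 0.09, edgeR adjusted p 1.11e-05) with RAS deleted under ERF WT and 0.54 (SE 0.09, edgeR adjusted p 3.38e-05) under ERF KO with RAS present. Tcf7 was thus somewhat higher in FA where RAS was present and lower where it was deleted under ERF WT.

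Axin2 (chromosome 11, 108920349 to 108950783, GRCm38) encodes a scaffold of the beta-catenin destruction complex and is the most commonly read-out Wnt target. Its reference libraries overlapped between media, at 9.35, 15 and 19.6 CPM in 2iL and 19.6 and 13.3 CPM in FA, a change of 0.18 (SE 0.24, edgeR adjusted p 0.554) that was not called. Without the 4 ERF WT libraries numbered 1 that change became -0.41 (edgeR adjusted p 0.0754). Under the ERF KO label with RAS present the 2 media again overlapped, at 14.8, 15.6 and 14.9 CPM in 2iL against 16.3, 16.9 and 12.7 CPM in FA.

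In the RAS-deleted lines Axin2 did fall. Under ERF WT it went from 30.3, 46.1 and 43.6 CPM in 2iL, the highest group of the 8, to 5.39, 5.43 and 6.83 CPM in FA, the lowest, a change of -2.76 (SE 0.22, edgeR adjusted p 7.53e-09). Under ERF KO it went from 20.3, 16.9 and 17.8 CPM to 10.1, 9.35 and 7.83 CPM, or -1.01 (SE 0.22, edgeR adjusted p 0.000569). That call sits at the 2-fold limit and was lost without the first 2iL library (-0.93) or the third FA library (-0.92) of the line, and with upper-quartile scaling (-0.95, edgeR adjusted p 0.00122). The other 6 groups had means between 9.08 and 18.3 CPM, each overlapping its neighbor in the order, save that the lowest of them lay clear of the group below.

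Nkd1 (chromosome 8, 88521354 to 88594884, GRCm38) encodes an inhibitor that binds Dishevelled inside the cell. It rose in FA in the reference line, from 2.84, 2.80 and 2.69 CPM to 6.55 and 6.25 CPM, by 1.20 (SE 0.24, edgeR adjusted p 0.000245). It also rose under ERF KO, by 1.94 (SE 0.24, edgeR adjusted p 5.98e-07) with RAS present and by 1.48 (SE 0.24, edgeR adjusted p 1.62e-05) with RAS deleted. The ERF WT line with RAS deleted stood apart, with FA libraries at 3.94, 2.47 and 2.01 CPM against 2.96, 3.40 and 2.66 CPM in 2iL (-0.11, SE 0.23, edgeR adjusted p 0.749). Nkd1 lies on chromosome 8, where the ERF WT libraries numbered 1 had raised levels, and the FA library at 3.94 CPM is one of them.

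The transmembrane ubiquitin ligases ZNRF3 and RNF43, which remove Frizzled receptors from the cell surface, behaved differently. Znrf3 (chromosome 11, 5276324 to 5444847, GRCm38) was the steadiest of the 10 genes, with group means from 25.7 to 33.3 CPM and no call in any of the 12 comparisons. It passed the adjusted p once, 0.38 lower under ERF KO with RAS deleted in 2iL (value -0.38, SE 0.10, edgeR adjusted p 0.00609). Rnf43 (chromosome 11, 87662722 to 87735539, GRCm38) was low, at 1.12 CPM or less in every library. Its FA libraries with RAS deleted under ERF WT had 0.175, 0.162 and 0.0719 CPM against 0.591, 1.12 and 0.532 CPM in 2iL, a fall of 2.43 (SE 0.48, edgeR adjusted p 0.000255). Rnf43 was not called between media in the other 3 lines. In ERF KO with RAS deleted its change was -0.83 (SE 0.39, edgeR adjusted p 0.0734), with ranges that did not overlap.

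Notum (chromosome 11, 120653788 to 120661175, GRCm38) encodes a secreted enzyme that strips the lipid from Wnt proteins. Its medium response depended on RAS. With RAS present it fell, in the reference line from 6.44, 8.33 and 11 CPM to 2.84 and 1.18 CPM (-2.04, SE 0.30, edgeR adjusted p 9.04e-06) and under ERF KO from 3.84, 3.47 and 2.73 CPM to 1.43, 1.82 and 1.20 CPM (-1.18, SE 0.30, edgeR adjusted p 0.00259). The first of these was -2.86 without the first FA library. The second of these was lost with an offset for effective length (-0.74, edgeR adjusted p 0.135).

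With RAS deleted, Notum was higher in FA. Under ERF WT it went from 15.5, 16.8 and 19.9 CPM in 2iL to 35.5, 30.8 and 37.7 CPM, with no overlap, a change of 0.99 (SE 0.22, edgeR adjusted p 0.000818) just short of 2-fold. With the replicate number as a block, which pairs the libraries of this comparison, the change was 1.00 and called (edgeR adjusted p 0.000105). Under ERF KO it was 4.15, 2.97 and 2.76 CPM in 2iL and 7.44, 4.69 and 4.77 CPM in FA, a change of 0.78 (SE 0.26, edgeR adjusted p 0.0157), also short of 2-fold.

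Dkk1 (chromosome 19, 30545863 to 30549665, GRCm38) encodes a secreted antagonist that binds the LRP co-receptors. It was near the detection floor in 2iL, at 0.28, 0.238 and 0.279 CPM in the reference line, and reached 6.84 and 1.94 CPM in FA, a rise of 4.02 (SE 0.47, edgeR adjusted p 2.18e-07). That rise was 2.81 without the first FA library and 4.63 without the second. Under ERF KO with RAS present it rose by 2.91 (SE 0.46, edgeR adjusted p 1.32e-05), to 2.69, 3.21 and 1.59 CPM. In both RAS-deleted lines the FA libraries stayed between 0.0719 and 0.307 CPM, and neither change was called.

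Primitive endoderm markers (Gata6, Gata4, Sox17, Pdgfra, Sox7, Dab2) were higher in FA with RAS present, as Dkk1 was, but did not follow it in each library. All 6 were detected in each group, and their summed level in FA was between 103 and 172 CPM with RAS present and between 14.2 and 32.4 CPM with RAS deleted. The FA library of the reference line with 6.84 CPM of Dkk1 had 172 CPM of these markers, and the library with 1.94 CPM had 103 CPM. Under ERF KO with RAS present in FA the sums were level, at 103, 103 and 104 CPM. Dkk1 was at 2.69, 3.21 and 1.59 CPM in those libraries. In 2iL the sum was between 12.0 and 67.1 CPM. The library at 67.1 CPM, from ERF KO with RAS present, had 0.526 CPM of Dkk1. The part of such cells in the Dkk1 level was not tested.

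**Figure D2:**
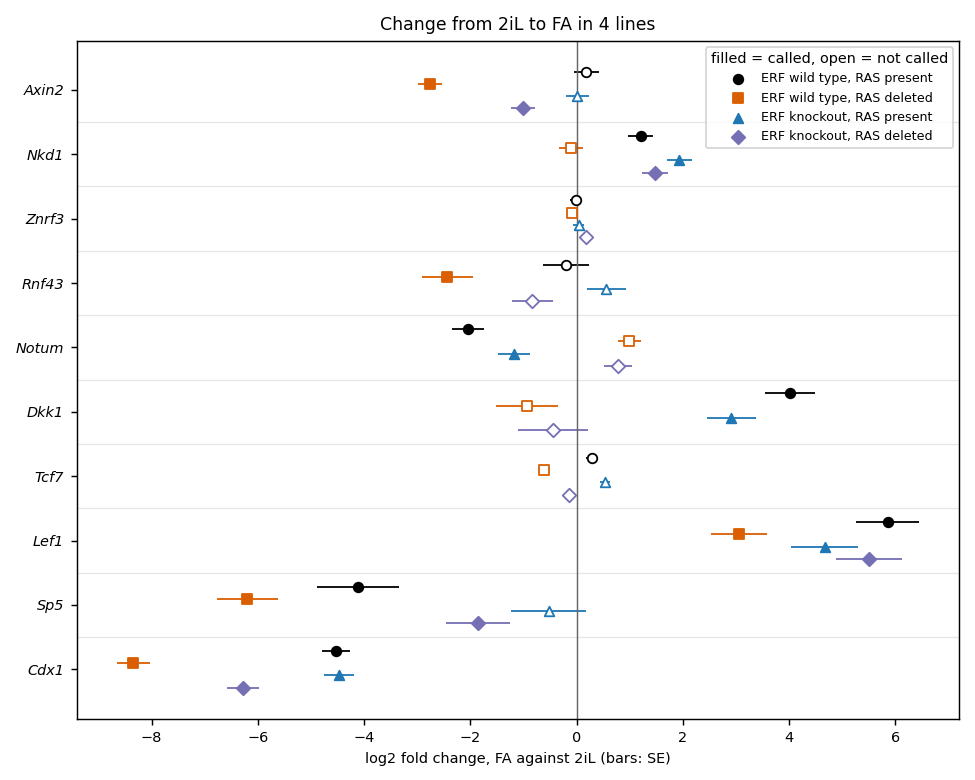
Fitted log2 fold changes between FA and 2iL (horizontal axis) of the 10 genes (vertical axis) in 4 lines, with bars for the standard error and filled symbols for calls. Cdx1 and Lef1 are called in all 4 lines, in opposite directions, while Notum and Dkk1 lie on different sides of 0 with RAS present (filled) and with RAS deleted (open).

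In counts over the 10 genes, the ERF WT line with RAS deleted had 1 call higher and 4 lower, beside 9.96% and 6.59% of all genes. The ERF KO line with RAS present had 3 higher and 2 lower, beside 12.3% and 7.46%. The ERF KO line with RAS deleted had 2 higher and 3 lower, beside 14.5% and 10.4%. Medians over the 10 genes were -0.77, 0.29 and -0.30 in that order, beside 0.01, 0.02 and 0.03 over all genes.

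The second question was what RAS deletion did within each medium; these comparisons share groups with those between media. In 2iL under ERF WT, Axin2, Sp5 and Notum rose and none of the 10 fell, while only 0.692% of all genes were called higher and 0.506% lower. At an unadjusted edgeR p under 0.05, 5 were higher and 0 lower, and DESeq2, which gave 2 of the 10 no adjusted p, called 3 higher and 0 lower. Shares of all genes at an unadjusted p or with DESeq2 were not counted, here or below. The percentages given do not apply to such counts. Axin2 rose by 1.46 (SE 0.21, edgeR adjusted p 0.000486), from 9.35, 15 and 19.6 CPM to 30.3, 46.1 and 43.6 CPM. Sp5 rose by 2.42 (SE 0.42, edgeR adjusted p 0.00213) and Notum by 1.03 (SE 0.23, edgeR adjusted p 0.0112), with no overlap between groups for any of the 3; without the third library with RAS present the Sp5 rise was 3.09. Cdx1 was 0.67 higher (SE 0.17, edgeR adjusted p 0.0235), short of 2-fold. Notum lost its call without the first library with RAS present (0.84, edgeR adjusted p 0.0825) or the third with RAS deleted (0.92, edgeR adjusted p 0.0599), and also with the length offset or without the 4 ERF WT libraries numbered 1. Two-cell-like markers summed to between 34.9 and 49.7 CPM with RAS deleted and to between 5.71 and 10.6 CPM with RAS present, and their part in these calls was not tested.

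In 2iL under the ERF KO label the same deletion gave 0 calls with edgeR among the 10 genes, beside 0.0687% of all genes higher and 0.142% lower. At an unadjusted edgeR p under 0.05, a threshold without a counted share of all genes, 3 were higher and 0 lower. DESeq2 also called 0, with 2 of the 10 given no adjusted p. Sp5 was 1.39 higher (SE 0.60, edgeR adjusted p 0.281), and with the replicate number as a block, which pairs these libraries, it was called (1.37, edgeR adjusted p 0.0135). Over all genes the block raised the number of calls from 43 to 207. Cdx1 was 0.91 higher (SE 0.19, edgeR adjusted p 0.017). The difference in RAS effect between the ERF labels in 2iL was called for 0 of the 10, beside 0.378% of all genes. Axin2 came closest, at -1.18 (SE 0.30, edgeR adjusted p 0.0521). DESeq2, which gave 1 of the 10 no adjusted p, called Axin2 (-1.17, adjusted p 0.00845), and 2 of the 10 were lower at an unadjusted edgeR p under 0.05.

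In 2iL under ERF WT all 10 fitted changes with RAS deletion were positive, and in FA 8 of them were negative. The medians were 0.60 and -1.34, beside 0 and 0.0014 over all genes. In 2iL 7 of the 10 were not called, among them Znrf3 (0.04, edgeR adjusted p 0.859) and Nkd1 (0.11, edgeR adjusted p 0.835). In FA the negative ones include Znrf3 (-0.03, edgeR adjusted p 0.863). In FA under ERF WT, RAS deletion lowered 6 of the 10 and raised 1, beside 8.33% and 8.93% of all genes. Dkk1 fell by 4.42 (SE 0.48, edgeR adjusted p 1.18e-07), Cdx1 by 3.15 (SE 0.48, edgeR adjusted p 1.77e-05), Rnf43 by 2.00 (SE 0.53, edgeR adjusted p 0.00389), Axin2 by 1.48 (SE 0.24, edgeR adjusted p 5.92e-05) and Nkd1 by 1.20 (SE 0.24, edgeR adjusted p 0.000324). The Nkd1 fall came just short of 2-fold without the third library with RAS deleted (edgeR adjusted p 0.00238), and the Rnf43 fall was not called with the replicate number as a block (-1.66, edgeR adjusted p 0.131). Lef1 fell by 1.87 (SE 0.46, edgeR adjusted p 0.00377), a call that did not hold when only these 2 groups were fitted (edgeR adjusted p 0.15), also with the block (edgeR adjusted p 0.308). It did not hold without the ERF WT libraries numbered 1 either (-1.21, edgeR adjusted p 0.0604). Tcf7 passed the adjusted p but not 2-fold (-0.66, SE 0.10, edgeR adjusted p 1.28e-05). Notum alone rose, by 4.06 (SE 0.31, edgeR adjusted p 1.2e-09), or 16.7-fold. Without the first reference FA library the Notum rise was 4.88, the Dkk1 fall -3.22 and the Cdx1 fall -2.25. Dkk1 was at -5.03 without the second reference library, Cdx1 at -3.92 without the first with RAS deleted and Lef1 at -2.65 without the third.

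Naive markers moved with these differences, at 777 to 1172 CPM with RAS deleted against 105 to 132 CPM with RAS present, while formative epiblast markers summed to between 281 and 512 CPM against between 865 and 877 CPM. Two-cell-like markers summed to between 46.0 and 177 CPM against between 13.5 and 30.7 CPM. Primitive streak and mesoderm markers summed to between 10 and 14.7 CPM against between 21.3 and 23.4 CPM, and primitive endoderm markers to between 14.2 and 19 CPM against between 103 and 172 CPM. Trophoblast markers were at 49.8 to 57 against 36.7 to 47.4 CPM, and general pluripotency markers at 1218 to 1275 against 895 to 1004 CPM. The streak list holds T and Mixl1 and the trophoblast list Cdx2, which are also followed below as beta-catenin targets. The part of these marker differences in the 7 calls was not tested.

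Under the ERF KO label in FA, RAS deletion raised Notum by 1.94 (SE 0.28, edgeR adjusted p 4.08e-05) and lowered Dkk1 by 3.69 (SE 0.47, edgeR adjusted p 6.24e-06), as under ERF WT. Rnf43 fell by 1.01 (SE 0.37, edgeR adjusted p 0.0472), a call that DESeq2 did not make (adjusted p 0.0855) and that was lost in 4 of 6 fits that left out 1 library. This was 1 higher and 2 lower of 10, beside 2.81% and 4.06% of all genes. Axin2 (-0.75, SE 0.22, edgeR adjusted p 0.015) and Tcf7 (-0.46, SE 0.09, edgeR adjusted p 0.00069) passed the adjusted p but not 2-fold. Naive markers were at 90.3 to 111 CPM with RAS deleted and at 98.3 to 149 CPM with RAS present in these libraries. Primitive endoderm markers summed to between 22.1 and 32.4 CPM with RAS deleted and to between 103 and 104 CPM with RAS present, and trophoblast markers to between 29.6 and 39.9 CPM against between 48.6 and 69.1 CPM. Formative epiblast markers were higher with RAS deleted, at 673 to 720 against 579 to 623 CPM, as were primitive streak and mesoderm markers, at 16 to 18.9 against 10.2 to 13.5 CPM. Fibroblast feeder markers were at 7.21 to 8.49 against 4.34 to 5.26 CPM. The part of these differences in the 3 calls was not tested.

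**Figure D3:**
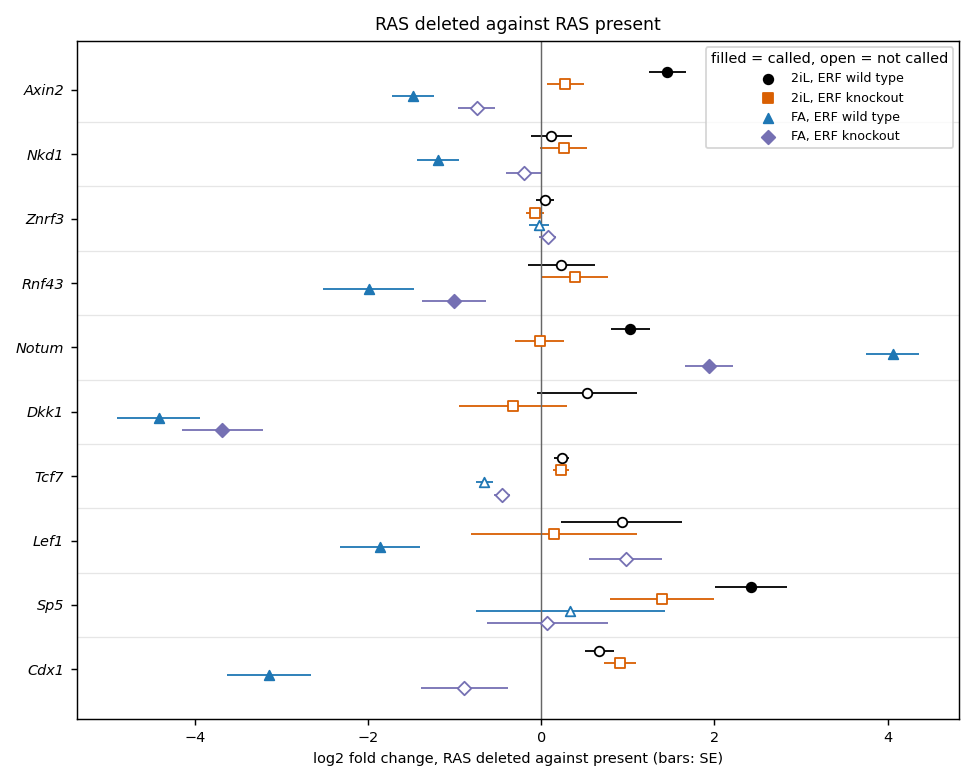
Fitted log2 fold changes between RAS deleted and RAS present (horizontal axis) of the 10 genes (vertical axis), in 2iL and in FA and for both ERF labels, with bars for the standard error and filled symbols for calls. Notum lies right of 0 in FA under both labels, at 4.06 and 1.94, Dkk1 left of 0, at -4.42 and -3.69, and Axin2 changes sides between 2iL and FA under ERF WT.

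Tests of the differences themselves were made for the medium response. Under ERF WT the response differed with RAS for 7 of the 10 genes, beside 11.9% of all genes. Axin2 (-2.94), Cdx1 (-3.82), Lef1 (-2.79), Nkd1 (-1.31), Dkk1 (-4.95) and Rnf43 (-2.23) had lower responses with RAS deleted, and Notum (3.03) a higher one. The Lef1 call was lost without any of 3 single libraries, the weakest being -2.55 (edgeR adjusted p 0.0609) without the first reference FA library, with only the groups compared (edgeR adjusted p 0.0638), with the replicate block (edgeR adjusted p 0.0542) and without the 4 ERF WT libraries numbered 1 (-2.35, edgeR adjusted p 0.0935). The Rnf43 call was lost without the second 2iL library with RAS deleted (-1.82, edgeR adjusted p 0.0543), without the first reference FA library (-2.13, edgeR adjusted p 0.055) and with the block (edgeR adjusted p 0.0724). Without that FA library the values of Cdx1, Notum and Dkk1 were -2.92, 3.86 and -3.74, all still called. Other single libraries moved values the other way: Lef1 was at -3.58 without the third FA library with RAS deleted, Cdx1 at -4.58 without the first of that group and Dkk1 at -5.57 without the second reference FA library.

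Under the ERF KO label it differed for 4, beside 4.59%, namely Axin2, Cdx1, Notum and Dkk1, in the same directions. The Axin2 call there (-1.03, SE 0.30, edgeR adjusted p 0.0325) was lost in 10 of 12 fits that left out 1 library, at the weakest with adjusted p 0.0846 without the second FA library with RAS present, and with the length offset (-0.89, edgeR adjusted p 0.0828). Notum, at 1.96 in the reported fit, was not called with that offset either (1.48, edgeR adjusted p 0.084). Cdx1 (-1.80, SE 0.54, edgeR adjusted p 0.0311) was lost in 5 of 12, at the weakest -1.21 (edgeR adjusted p 0.221) without the same library.

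The third question was how the ERF label related to the 10 genes, with the reservation that Erf counts were not called lower under ERF KO. In 2iL the genes that differed were lower under ERF KO. With RAS present Sp5 (-2.29, SE 0.55, edgeR adjusted p 0.00346), Cdx1 (-1.65, SE 0.18, edgeR adjusted p 5.87e-07) and Notum (-1.35, SE 0.25, edgeR adjusted p 0.000428) were called lower and 0 higher, beside 4.52% and 5.2% of all genes. With RAS deleted Axin2 (-1.13, SE 0.21, edgeR adjusted p 0.000255) joined Sp5 (-3.32, SE 0.46, edgeR adjusted p 7.97e-06), Cdx1 (-1.41, SE 0.18, edgeR adjusted p 1.63e-06) and Notum (-2.40, SE 0.25, edgeR adjusted p 2.9e-07), giving 4 lower and 0 higher beside 7.15% and 5.83%. In both, 0 were higher at an unadjusted edgeR p under 0.05, and DESeq2 called 0 higher. Without the third reference 2iL library the Sp5 difference with RAS present was -1.62 (edgeR adjusted p 0.0372). Nkd1 passed the adjusted p short of 2-fold with RAS present (-0.90, SE 0.25, edgeR adjusted p 0.0101) and with RAS deleted (-0.75, SE 0.25, edgeR adjusted p 0.0208). Trophoblast and primitive streak markers were lower under ERF KO in 2iL without overlap, trophoblast ones at 62.3 to 79.5 against 106 to 124 CPM and primitive streak and mesoderm ones at 11 to 13.6 against 17.3 to 20.7 CPM. Formative epiblast markers with RAS present were at 89.7 to 99 against 102 to 115 CPM. Primitive endoderm markers were higher under ERF KO without overlap, at 27.6 to 67.1 against 13.8 to 21.4 CPM with RAS present and at 18.8 to 26.5 against 12 to 18.4 CPM with RAS deleted. Two-cell-like markers were at 23 to 70.2 CPM under ERF KO and 5.71 to 10.6 CPM under ERF WT with RAS present. General pluripotency markers with RAS deleted were at 1186 to 1259 against 1063 to 1155 CPM. The primitive streak list holds T and Mixl1 and the trophoblast list Cdx2, which are also followed below as beta-catenin targets. The part of these differences in the calls was not tested.

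In FA with RAS present, Cdx1 (-1.60, SE 0.39, edgeR adjusted p 0.0131) and Lef1 (-1.81, SE 0.46, edgeR adjusted p 0.022) were called lower under ERF KO and 0 higher, beside 0.78% and 1.58% of all genes; DESeq2 and the unadjusted p under 0.05 gave 0 higher too. The Cdx1 ranges overlapped. Both calls were lost without the first reference FA library, where Cdx1 stood at -0.69 (edgeR adjusted p 0.558) and Lef1 at -1.55 (edgeR adjusted p 0.194). Cdx1 lost its call in 3 of 5 such fits and Lef1 in 2 of 5. In FA with RAS deleted, Notum was lower under ERF KO by 2.61 on the log2 scale (value -2.61, SE 0.23, edgeR adjusted p 1.13e-08) and Rnf43 higher by 1.83 (SE 0.49, edgeR adjusted p 0.00413), beside 8.48% lower and 8.13% higher. Nkd1 was 0.83 higher (SE 0.22, edgeR adjusted p 0.004), short of 2-fold. So were Axin2, 0.63 higher (SE 0.23, edgeR adjusted p 0.0333), and Tcf7, 0.33 higher (SE 0.09, edgeR adjusted p 0.0057). Several marker lists differed without overlap in these FA libraries. With RAS present, formative epiblast markers were at 579 to 623 CPM under ERF KO and 865 to 877 CPM under ERF WT, and primitive streak and mesoderm markers at 10.2 to 13.5 against 21.3 to 23.4 CPM. Trophoblast markers were at 48.6 to 69.1 against 36.7 to 47.4 CPM there, and two-cell-like markers at 40.7 to 98.9 against 13.5 to 30.7 CPM. With RAS deleted, naive markers were at 90.3 to 111 CPM under ERF KO and 777 to 1172 CPM under ERF WT, formative markers at 673 to 720 against 281 to 512 CPM and trophoblast markers at 29.6 to 39.9 against 49.8 to 57 CPM. Primitive endoderm markers were at 22.1 to 32.4 against 14.2 to 19 CPM there, and primitive streak and mesoderm markers at 16 to 18.9 against 10 to 14.7 CPM. Fibroblast feeder markers with RAS deleted were at 7.21 to 8.49 against 2.23 to 3.64 CPM. General pluripotency markers were at 781 to 815 against 1218 to 1275 CPM with RAS deleted and at 797 to 855 against 895 to 1004 CPM with RAS present. Their part in these calls was not tested.

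The medium response differed with the ERF label for 1 gene with RAS present, Sp5, beside 4.27% of all genes. That value (3.59, SE 1.11, edgeR adjusted p 0.0457) uses a group at 2 and 3 counts and lost its call in 10 of 11 fits that left out 1 library, with adjusted p 0.192 without the first reference FA library. With RAS deleted it differed for 4 genes, beside 11.3%, all with a less negative or more positive response under ERF KO: Axin2 (1.75), Sp5 (4.35), Cdx1 (2.07) and Nkd1 (1.58). The Sp5 value rests on FA counts of 0, 1 and 9 under ERF WT and was 6.71 without the third of these libraries. The Nkd1 call was lost with the length offset (1.02, edgeR adjusted p 0.0675). The Cdx1 call was lost without any of 4 single FA libraries, with values from 1.74 to 1.96 and the largest adjusted p, 0.117 in edgeR, without the first ERF KO one; without the first ERF WT one the value was 2.83 and called. In FA the RAS effect differed with the ERF label for 3 genes, beside 13.7%: Lef1 (2.84, SE 0.62, edgeR adjusted p 0.00281), Cdx1 (2.26, SE 0.76, edgeR adjusted p 0.0291) and Notum (-2.12, SE 0.41, edgeR adjusted p 0.000541). Lef1 was at 3.62 without the third ERF WT library with RAS deleted, and Notum at -2.95 without the first reference FA library, both still called. The Cdx1 call was lost in 7 of 11 fits that left out 1 library, the weakest being 1.35 (edgeR adjusted p 0.211) without that reference library, and stood at 3.02 without the first ERF WT library with RAS deleted. It was also lost with only the groups compared (edgeR adjusted p 0.106), with the replicate block (edgeR adjusted p 0.182) and without the 4 ERF WT libraries numbered 1 (edgeR adjusted p 0.0611).

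Other genes of the pathway were followed in 8 lists with 96 genes, of which 82 passed the filter. In the reference line 20 rose and 16 fell between 2iL and FA, beside 13.2% and 10.8% of all genes. In the other lines the numbers higher and lower were 14 and 15 (ERF WT, RAS deleted; 9.96% and 6.59% of all genes), 19 and 14 (ERF KO, RAS present; 12.3% and 7.46%) and 27 and 14 (ERF KO, RAS deleted; 14.5% and 10.4%). The values below are for the reference line, and the count of each list is to be read against its 13.2% higher and 10.8% lower.

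Of 11 Wnt ligands tested, 5 rose and 2 fell. Wnt8a, expressed in the early epiblast and streak, rose by 5.91 (SE 0.67, edgeR adjusted p 8.72e-07) to 18.2 CPM, and Wnt7b fell by 3.80 (SE 0.40, edgeR adjusted p 4.82e-08) from 9.94 CPM. Of 5 secretion factors and R-spondins tested, 3 rose and 1 fell, and Porcn, the acyltransferase that all Wnt proteins need for secretion, rose by 1.19 (SE 0.18, edgeR adjusted p 1.09e-05). Of 17 receptors tested, 4 rose and 2 fell. Lgr4, the receptor for R-spondins, rose by 2.92 (SE 0.12, edgeR adjusted p 7.87e-15) from 25.4 to 193 CPM, and Fzd2 rose by 2.78 while Ror2 fell by 1.56 and Fzd5 by 1.5.

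Of 10 cytoplasmic transducers 1 fell and 9 were not called. The 1 was Btrc, which encodes the ubiquitin ligase subunit that recognizes beta-catenin (-1.04, SE 0.11, edgeR adjusted p 2.08e-08). By the adjusted p alone 5 of the 10 were lower, but the share of all genes at that threshold was not counted. Ctnnb1, the beta-catenin gene, was at 435 CPM in 2iL and 439 CPM in FA (0.01, SE 0.08, edgeR adjusted p 0.896). Of 12 nuclear partners tested 1 rose and 3 fell: the co-repressor gene Tle4 rose by 1.71 (SE 0.17, edgeR adjusted p 7.86e-08), Tle3 fell by 1.24 and Aes, the older symbol of Tle5, fell by 2.47 (SE 0.26, edgeR adjusted p 4.07e-07). Tcf7l1, the repressor named above, was 0.62 lower in FA (SE 0.15, edgeR adjusted p 0.00196), short of 2-fold. It was 0.64 higher (edgeR adjusted p 0.00054) with RAS deleted under ERF WT, and it rose by 1.76 (SE 0.14, edgeR adjusted p 1.38e-09) with RAS deleted under ERF KO.

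Of 11 secreted inhibitors and co-receptors tested, 2 rose and 2 fell, with Sfrp2 up by 3.06 (SE 0.29, edgeR adjusted p 3.65e-08) while Sfrp1 fell by 1.68 and Dkkl1 by 2.79. Of 11 other beta-catenin targets 5 rose and 6 were not called. Myc rose by 6.86 (SE 0.53, edgeR adjusted p 6.07e-09), from 0.359 to 41.0 CPM, and Fgf8 by 5.33 (SE 0.57, edgeR adjusted p 4.14e-07). All 5 naive genes listed as repressed by TCF7L1 fell, by a median of 4.00, with Tfcp2l1 at -5.26 (SE 0.21, edgeR adjusted p 1.74e-13) and Nr5a2 at -4.61 (SE 0.26, edgeR adjusted p 2.86e-11). These 5 also fell under ERF KO in both RAS states, and 3 of the 5 fell with RAS deleted under ERF WT. Esrrb and Tfcp2l1 are also among the naive markers, Cdx2 among the trophoblast markers, and T and Mixl1 among the primitive streak and mesoderm markers.

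**Figure D4:**
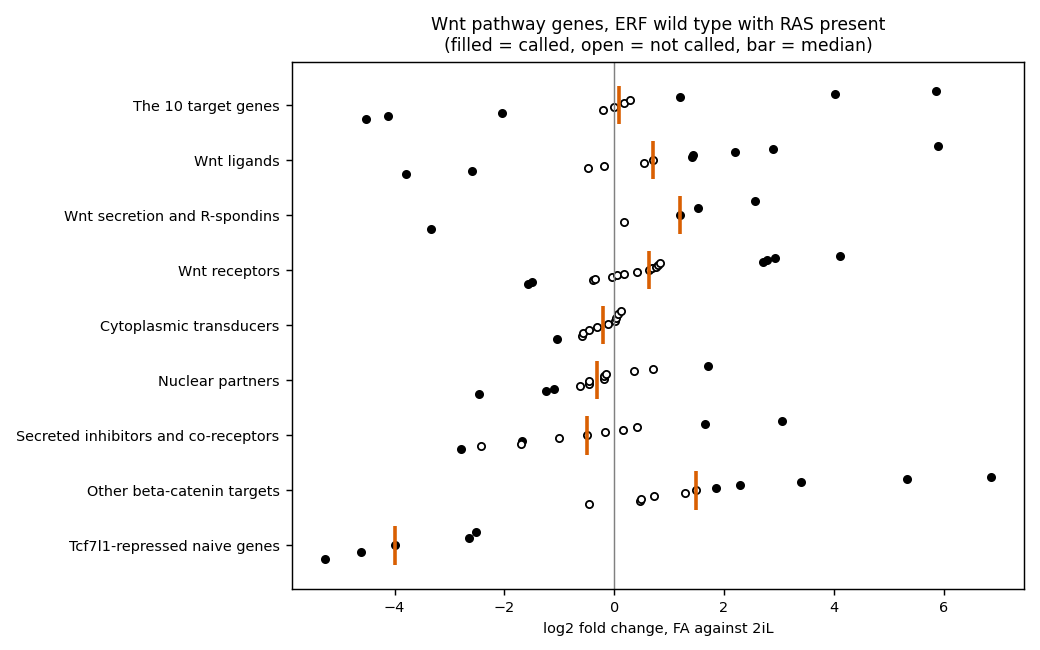
Fitted log2 fold changes between FA and 2iL in the reference line (horizontal axis) for the 10 target genes and 8 pathway lists (vertical axis; the vertical spread within a list only separates the points), filled where called, with an orange bar at each median. The 10 target genes spread on both sides of 0, all 5 naive genes repressed by TCF7L1 lie at or below -2.52, and the transducers lie between -1.04 and 0.13.

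The genes most like Axin2, Sp5 and Cdx1 were read by Pearson's r of log2(CPM + 1) over the 23 libraries, among 11140 genes, as a description. Axin2 was followed most closely by Platr15 (r = 0.854), Epp13 (r = 0.834) and Elp3 (r = 0.833). Sp5 was followed by Sp100 (r = 0.927), Nin (r = 0.927) and Fam160a2 (r = 0.925), and Cdx1 by Hal (r = 0.978), Mindy1 (r = 0.974) and Resf1 (r = 0.974). Axin2 itself correlated with Sp5 at 0.807 and with Cdx1 at 0.717. The libraries share 8 groups and 2 media, so these values mostly rank likeness of group means.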

How the data were processed

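Per the labels' protocols, total RNA depleted of ribosomal RNA was made into directional libraries and read as 75-base pairs. Per the submitters' processing notes, bcl2fastq 2.20.0, fastp 0.20.0 and Salmon were used with build mm10; Salmon's version is not given in the sources used here. The authors deposited, per the file headers, 1 Salmon table a library with estimated counts, TPM and effective lengths, and a count matrix whose cells equal the rounded estimates (0 differ). Estimates of similar genes share reads.

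Columns were matched to 8 label groups. edgeR 4.0.16 (R 4.3.3) was run on the counts with filterByExpr, TMM scaling and the robust quasi-likelihood test, in 1 model of 23 libraries with a coefficient a group, for 12 comparisons and 6 interactions. The SE is the absolute log2 fold change over the square root of F. CPM uses library totals (16.2 to 29.9 M) times the TMM factor. The most abundant row took 17.6 to 27.9% of a library. At or below 3 counts (0.0966 to 0.202 CPM) a gene was treated as at the floor. Replicate pairs differed beyond sampling noise (chi-square per degree of freedom of at least 3.04 in 22 pairs), so each library counted once.

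Replicate numbers come from the titles. They were taken to pair libraries where all 3 same-numbered pairs deviated together (correlation over 0.1): the medium comparisons of both RAS-deleted lines (0.16 to 0.37) and of ERF KO with RAS present, and RAS deletion in 2iL (0.31 to 0.52). The 10 genes, the pathway lists (1 gene found under an older symbol) and the marker lists were chosen with earlier results of these data known. Per list, up to 2 genes higher and 2 lower with the largest change in the reference line are named, among calls with separate ranges and a mean of at least 5 CPM, with Tcf7l1 and Ctnnb1 always. Genome positions are from GENCODE M21, promoters from RefSeq. One further targeted gene is not reported here. Alternatives were RLE and upper-quartile scaling, 2 other filters, DESeq2 1.42.0, fits to the compared groups with and without a replicate block, no fold minimum, a length offset, removal of the most abundant row, leaving out each library and, added after seeing the data, leaving out the 4 ERF WT libraries numbered 1.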

Additional observations from a re-analysis of the deposited data

Results flagged for a closer look

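Results below had a tested difference between 2 lines' responses (edgeR adjusted p under 0.05, log2 scale). No explanation was tested. The medium response with RAS deleted minus that with RAS present was, under ERF WT, -2.94 for Axin2 (SE 0.32), -3.82 for Cdx1 (SE 0.51), -2.79 for Lef1 (SE 0.83), -0.89 for Tcf7 (SE 0.14), -1.31 for Nkd1 (SE 0.34), 3.03 for Notum (SE 0.37), -4.95 for Dkk1 (SE 0.77) and -2.23 for Rnf43 (SE 0.66). Notum, which encodes a secreted Wnt inactivator, had the opposite sign to the other 7. Under the ERF KO label the same difference was -1.03 for Axin2, -1.80 for Cdx1, -0.69 for Tcf7, 1.96 for Notum and -3.36 for Dkk1.

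The medium response under ERF KO minus that under ERF WT was 3.59 for Sp5 with RAS present. With RAS deleted it was 1.75 for Axin2, 4.35 for Sp5, 2.07 for Cdx1, 0.46 for Tcf7 and 1.58 for Nkd1. In FA the effect of RAS deletion under ERF KO minus that under ERF WT was 2.26 for Cdx1, 2.84 for Lef1, 0.99 for Nkd1 and -2.12 for Notum. Differences below 1 in size are under 2-fold.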

How the results depend on the processing

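Of 64 called changes of the 10 genes over the 18 contrasts, 45 kept their call under every alternative run and none changed sign. Of 116 changes that were not called, 38 changed sign under at least one, 28 of them changes under 0.5 in size given nowhere above. Between FA and 2iL, without the 4 ERF WT libraries numbered 1, Axin2 and Rnf43 in the reference line stood at -0.41 and 0.068. With a length offset, Axin2 in ERF KO with RAS present was -0.11 and Znrf3 in ERF KO with RAS deleted -0.079. Axin2 in the former was -0.0065 with only the groups compared and -0.012 with the replicate block. Znrf3 in the reference line was 0.038 with upper-quartile scaling. Without the 4 libraries, Dkk1 between ERF labels in FA with RAS present was 0.39, its RAS effect by ERF label in FA -0.095 and its medium response by ERF label with RAS present 0.053. Leaving out single libraries moved these 3 from -1.44 to 0.39, from -0.48 to 1.33 and from -1.73 to 0.096. In the medium comparisons it moved Axin2 from -0.15 to 0.46 (reference line) and from -0.065 to 0.12 (ERF KO, RAS present), Rnf43 from -0.44 to 0.17 and Znrf3 from -0.088 to 0.060 (both reference line), Znrf3 from -0.033 to 0.10 (ERF KO, RAS present) and Nkd1 from -0.42 to 0.091 (ERF WT, RAS deleted). The cause was not tested.

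Counts of called genes that moved by over 1.5 times were the following; smaller moves include 6 lower with RAS deletion in FA under ERF WT (4 to 7), 7 for the medium response by RAS under ERF WT (5 to 8), 3 for the RAS effect by ERF label in FA (2 to 4) and 4 lower under ERF KO in 2iL with RAS deleted (4 to 6). Higher in FA with RAS deleted under ERF WT, 1 became 2 with DESeq2, RLE or upper-quartile scaling, a length offset, the stricter filter, no fold minimum or the replicate block (Notum), and 1 to 2 with a library left out. Lower with RAS deletion in FA under ERF KO, 2 became 1 with DESeq2 or no filter, 4 with no fold minimum, and 1 to 2 with a library left out. Higher with RAS deletion in 2iL under ERF KO, 0 became 1 with no fold minimum, no filter, the replicate block or without the 4 libraries. Higher under ERF KO in FA with RAS deleted, 1 became 2 with a length offset, no filter or without the 4 libraries, 4 with no fold minimum, 0 with only the groups compared or the block (Rnf43 was not tested in either), and 1 to 3 with a library left out. Lower under ERF KO in FA with RAS present, 2 became 0 with only the groups compared or without the 4 libraries, 1 with the block, and 0 to 3 with a library left out. Lower in FA in ERF KO with RAS present, 2 became 1 with a length offset. For the RAS effect by ERF label in 2iL, 0 became 1 with DESeq2, a length offset, the stricter filter or without the 4 libraries, 2 with no filter, and 0 to 1 with a library left out. For the medium response by ERF label with RAS present, 1 became 0 with a length offset or the block, 2 with no filter or without the 4 libraries, and 0 to 1 with a library left out. For the medium response by RAS under ERF KO, 4 became 2 to 4 with a library left out.

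Where the replicate numbers pair libraries, the block changed the calls of Notum and Sp5 given above and no other call in those comparisons. Elsewhere the libraries share only a number, and over all genes the block moved calls from 3518 to 2926 for RAS deletion in FA under ERF WT. Rnf43, Dkk1 in 2iL, Sp5 in FA and Cdx1 in FA with RAS deleted rest on few counts.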
